A study of Mus musculus with 9 samples.

Results

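In mouse round spermatids (RS), 129 genes were higher with oxamate than with vehicle and higher again when octyl-L-2HG was added to oxamate. They were picked from 25128 genes with a normalized count, of which 10715 had a mean normalized count of at least 100 over the 9 libraries. The choice used the measured values themselves. A gene entered when the mean with oxamate was at least 15% above the mean with vehicle, the mean with both compounds was at least 15% above the mean with oxamate, every oxamate library lay above every vehicle library, and each library with both compounds lay above all oxamate libraries. The sizes, order and separation of the groups are therefore given for these genes as a description, with no test. By the same criteria turned around, 163 genes were lower at both steps.

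The cells were wild type RS from mouse testis, which the study's methods describe as flow-sorted from males carrying a Stra8-driven Cre and a tdTomato reporter. They were held for 24 h in one of 3 conditions with 3 libraries each. The vehicle group received 0.15% DMSO, the oxamate group 24 mM oxamate with 0.15% DMSO, and the third group 24 mM oxamate together with 0.3 mM octyl-L-2HG, again in 0.15% DMSO. All groups were in medium with lactate, pyruvate and dialyzed serum. No group received octyl-L-2HG without oxamate, so the second step is the addition of octyl-L-2HG to cells that already had oxamate. The mice behind each library are not given in the sources used here, and p-values measure only the spread between these libraries. The libraries carry the numbers 1 to 3 (vehicle), 4 to 6 (oxamate) and 7 to 9 (both compounds).

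Oxamate is a pyruvate analogue that inhibits lactate dehydrogenase, and L-2HG is a metabolite that lactate dehydrogenase can make from alpha-ketoglutarate. The octyl ester carries L-2HG across the cell membrane. The study asked which transcript changes with oxamate were turned back toward vehicle by adding L-2HG, and the genes described here moved away from vehicle at that step too. Round spermatids are haploid cells that transcribe actively before the nucleus is compacted, and they carry many stored transcripts.

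The libraries held 32336349 to 39883760 counts. Pairs of libraries of one group differed by more than sampling noise, with chi-square values per degree of freedom between 2.11 and 23.5, and both values above 18 belonged to pairs with oxamate library 4. All 20 round spermatid markers were detected with a mean of at least 100, and their summed level was 170135 to 179074 normalized counts with vehicle, 168047 to 171092 with oxamate and 153701 to 156959 with both compounds. The 14 spermatocyte markers summed to 82251 to 88767, 71135 to 79331 and 84908 to 87990 in the same order. Each of the lists for spermatogonia, Sertoli, Leydig, peritubular, leukocyte, endothelial and erythroid cells summed to at most 1420 in any library. In the same order 12 of 12, 9 of 15, 6 of 9, 11 of 12, 6 of 12, 9 of 10 and 1 of 6 markers were tested. The markers not tested had no normalized count. None of the 129 genes was on any of these marker lists. Of the 20 spermatid markers, 1 was called higher and 4 lower with oxamate. At the second step, where the 129 genes were higher, none was called higher and 11 lower. Among genes with a mean of at least 100, 8.08% were called higher and 1.59% lower with oxamate, and 7.06% and 12.7% at the second step. Of all genes tested, 8.06% were called lower at the second step. The genes falling at both steps included 5 of the 20 markers. The part of this in the values of the 129 genes was not tested. In bulk RNA, fewer cells of a type and less RNA per cell cannot be told apart.

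Together the 129 genes took 0.708% to 0.742% of all normalized counts in the vehicle libraries, 0.894% to 0.951% in the oxamate libraries and 1.08% to 1.09% in the libraries with both compounds. The median gene of the set was 1.25-fold higher with oxamate than with vehicle and 1.24-fold higher with both compounds than with oxamate, which came to 1.56-fold over vehicle. On the log2 scale the medians were 0.32 at the first step and 0.31 at the second, beside 0.01 and 0.04 over the 10715 genes with a mean of at least 100. Ratios of both compounds to vehicle ran from 1.33 to 3.0. For 15 genes the level at least doubled, for 69 it lay between 1.5-fold and 2-fold, and for 45 it stayed under 1.5-fold. The plot of all members by library shows the 3 blocks of values in every row.

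**Figure D1:**
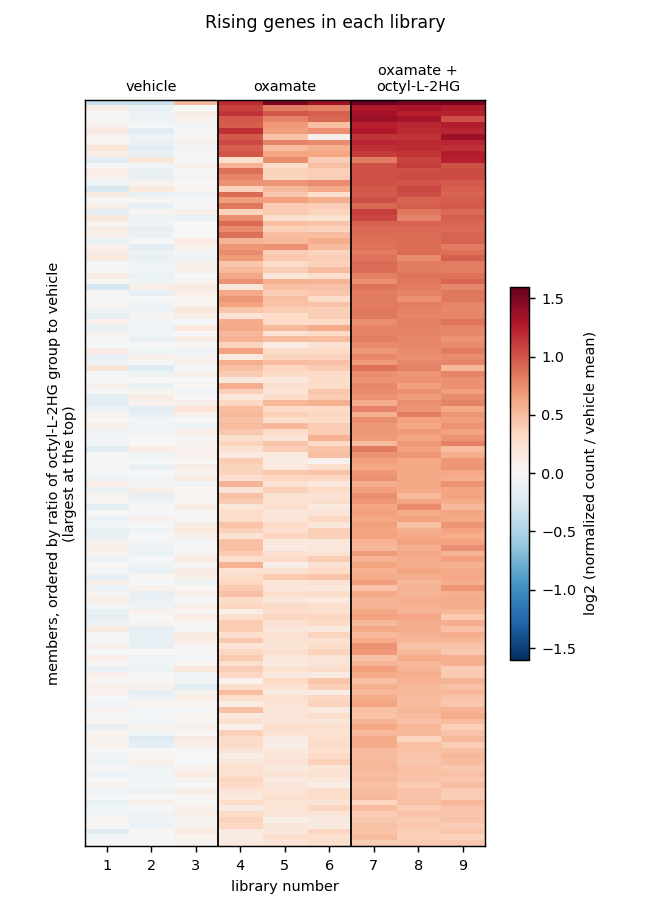
Log2 ratio of the normalized count to the vehicle mean for the 129 genes (rows, ordered by the ratio of both compounds to vehicle) in the 9 libraries (columns, with lines between the groups). The oxamate libraries 4 to 6 have higher values than the vehicle libraries in each row and the libraries 7 to 9 higher again. The choice of the genes requires this order. Library 4 is the highest oxamate library for 78 of the 129.

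Within the oxamate group, library 4 gave the highest value for 78 of the 129 genes and the lowest for 31, while it gave the highest for 45.8% of the 10715 genes. The per-library median of the log2 ratio to the vehicle mean was 0.40 in library 4, 0.28 in library 5 and 0.32 in library 6. With library 4 left out, the medians were 0.30 for oxamate over vehicle and 0.35 for the second step. All 129 genes then still had a mean above vehicle and a mean with both compounds above oxamate. Of the 38 members named by rank, list or nearness to a limit, 5 had a log2 first step over 1.5 times smaller without library 4. It went from 0.21 to 0.10 in Csrnp2, from 0.21 to 0.12 in AU040320, from 0.56 to 0.28 in Atp13a2, from 0.56 to 0.34 in Ncln and from 0.56 to 0.37 in Sppl2b. In Dhx57 it went from 0.27 to 0.15 without library 6.

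How the rise was divided between the steps varied from gene to gene. On the log2 scale the first step made up 29.6% to 85.7% of the whole rise, with a median of 51.8%, and it was the larger step for 78 genes and the smaller for 51. The split depended on the libraries and the scaling. The first step was the larger for 53 genes without oxamate library 4, with a median of 48.0%, and for 55 with the median of a group in place of its mean. It was the larger for 67 to 89 genes with any other library left out, for 88 with TMM or edgeR's fitted fold change and for 95 with total counts. Zfp740, a zinc finger protein gene, and Pitpnm2, which encodes a phosphatidylinositol transfer protein, had 85.7% and 82.2% of their rise with oxamate alone. Prxl2a, a redox protein gene chosen here after its values were seen, had 29.6% and Csrnp2, a nuclear protein gene, 31.0%. The share of Csrnp2 rests on oxamate library 4, at 530 normalized counts beside 434 and 421 in libraries 5 and 6, and was 14.4% without it. Only 2 genes at least doubled with oxamate alone, and none doubled at the second step, where the largest ratio was 1.59.

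**Figure D2:**
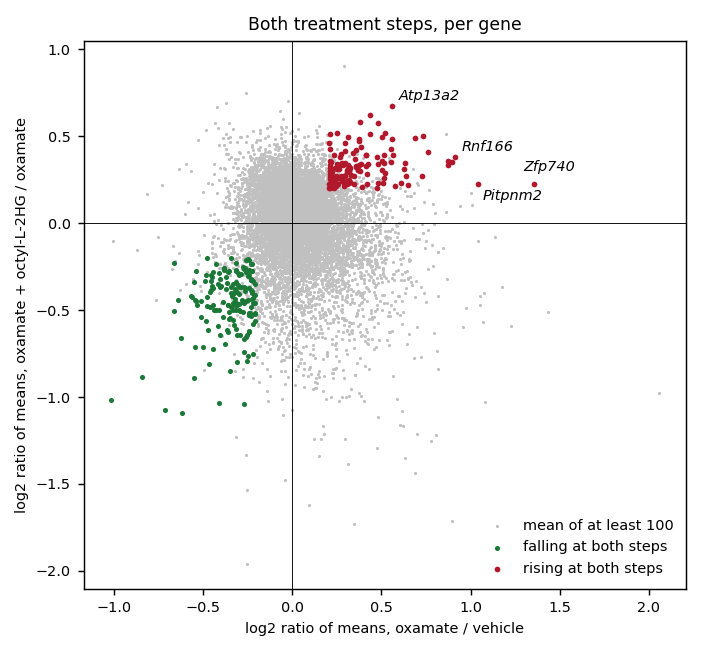
Log2 ratio of group means at the first step (x axis, oxamate over vehicle) against the second step (y axis, both compounds over oxamate) for the genes with a mean of at least 100 (grey), the 129 rising genes (red) and the 163 falling genes (green). The rising genes lie in the corner cut off by the 15% limits, which 207 genes met without the condition on the order of libraries. Among the rising genes Zfp740 lies farthest to the right and Atp13a2 highest. Both axes contain the oxamate libraries, so the 2 values of a gene are not independent.

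With the quasi-likelihood test of edgeR, fitted to all 25128 genes, 81 of the 129 were called higher with oxamate against vehicle at an adjusted p under 0.05, beside 3.97% of all genes called higher and 1.22% called lower. At the second step 77 were called higher, beside 3.18% of all genes called higher and 8.06% called lower. Against vehicle all 129 were called higher with both compounds, beside 7.48% called higher and 10.6% called lower. Since the genes were picked on these same contrasts, nothing is read from these counts. Of the 129, 57 were called at both steps, 24 at the first alone, 20 at the second alone and 28 at neither, although every library was in order. Over all genes 0.247% were called higher at both steps, 2.63% at the first alone and 2.89% at the second alone, and 85.3% were called at neither. These counts depend on which library is left out, as do the shares of all genes called higher. At the first step they ran from 47 members, beside 2.16% of all genes, without vehicle library 2 to 88, beside 6.31%, without oxamate library 4. With only the 2 groups compared in the fit, 45 were called, beside 2.24%. At the second step 102 were called without oxamate library 4, beside 6.27%, against 26 without library 5, beside 1.26%, and 45 without library 6, beside 2.54%. The counts without libraries 7, 8 and 9 were 37, 42 and 40, beside 0.947%, 1.09% and 1.56%, and with a vehicle library left out they were 72 to 78, beside 2.89% to 3.44%. A fit of only the groups compared called 45 at the first step.

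The second step also depends on the scaling. The share of higher genes among all calls with octyl-L-2HG against oxamate was 28.3% with TMM, 37.7% with DESeq2's size factors, 42.1% in the DESeq2 Wald test and 14.3% with total counts, and against vehicle it was 41.4% with TMM and 26.8% with total counts. With counts scaled by totals the 129 genes all kept a ratio above 1 at both steps, 114 of them kept 15% or more at the first step and 84 at the second, and the smallest log2 difference at the second step was 0.13. The rule applied anew to such counts picked 55 genes, of which 54 were among the 129.

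Zfp740 (ENSMUSG00000046897) had the largest ratio of both compounds to vehicle. Its normalized counts were 42.6, 42.6 and 77.8 with vehicle, 125, 154 and 139 with oxamate and 177, 154 and 157 with both compounds. The vehicle values spread widely while the second step was small, and libraries 5 and 8 nearly met. Zfp740 was 2.56-fold higher at the first step and 1.17-fold at the second, with fitted log2 fold changes of 1.36 ± 0.18 and 0.20 ± 0.15 (SE, n = 3 per group). Its exons share 278 bases with those of Csad on the opposite strand, whose means were 188, 272 and 197 in the order vehicle, oxamate and both compounds.

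Rnf166 (ENSMUSG00000014470), a RING-type ubiquitin ligase gene, was at 323 normalized counts per kb of exon with vehicle, where Zfp740 was at 10.7. It had 688, 595 and 640 normalized counts with vehicle, 1366, 1138 and 1113 with oxamate and 1562, 1605 and 1542 with both compounds. The groups lay well apart, and the log2 fold changes were 0.92 ± 0.09 and 0.35 ± 0.08 (SE). Pitpnm2 (ENSMUSG00000029406) had 2406, 2297 and 2631, then 5452, 4882 and 4748, then 6128, 5779 and 5727, so it more than doubled with oxamate and gained 1.17-fold with octyl-L-2HG. Adgrg1 (ENSMUSG00000031785), an adhesion G protein-coupled receptor gene, had 85.3, 79.6 and 88.8, then 167, 146 and 160, then 218, 212 and 172. Library 9 of Adgrg1 lay just above oxamate library 4, while its oxamate and vehicle values were far apart.

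The windows around the annotated start of these 4 genes, which have the largest ratios of the set, are shown because the base composition of the promoters is compared next. Each runs from 250 bases before to 50 after the start, 5′ to 3′ on the gene's strand, in RefSeq's GRCm38.p6, an older build than the one the counts were made on. Capitals mark each GC box, here the letters GGGCGG on either strand.
Zfp740: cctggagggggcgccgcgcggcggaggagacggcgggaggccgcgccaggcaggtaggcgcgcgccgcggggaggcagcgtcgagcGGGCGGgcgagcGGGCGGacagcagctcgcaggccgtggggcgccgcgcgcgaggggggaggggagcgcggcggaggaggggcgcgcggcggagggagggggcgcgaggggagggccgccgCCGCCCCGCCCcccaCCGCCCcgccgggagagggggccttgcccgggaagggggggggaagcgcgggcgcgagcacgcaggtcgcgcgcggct
Rnf166: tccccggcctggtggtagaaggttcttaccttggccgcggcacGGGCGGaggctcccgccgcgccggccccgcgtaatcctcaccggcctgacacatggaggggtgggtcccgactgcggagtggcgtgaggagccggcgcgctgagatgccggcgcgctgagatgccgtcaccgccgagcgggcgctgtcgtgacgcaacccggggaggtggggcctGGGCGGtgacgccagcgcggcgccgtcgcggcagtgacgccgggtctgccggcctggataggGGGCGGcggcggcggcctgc
Pitpnm2: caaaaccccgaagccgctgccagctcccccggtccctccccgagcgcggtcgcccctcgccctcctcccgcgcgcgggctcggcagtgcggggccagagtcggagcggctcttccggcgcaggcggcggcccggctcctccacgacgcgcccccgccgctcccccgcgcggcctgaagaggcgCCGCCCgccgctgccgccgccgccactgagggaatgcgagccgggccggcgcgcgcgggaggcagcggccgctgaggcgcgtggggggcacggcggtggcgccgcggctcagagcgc
Adgrg1: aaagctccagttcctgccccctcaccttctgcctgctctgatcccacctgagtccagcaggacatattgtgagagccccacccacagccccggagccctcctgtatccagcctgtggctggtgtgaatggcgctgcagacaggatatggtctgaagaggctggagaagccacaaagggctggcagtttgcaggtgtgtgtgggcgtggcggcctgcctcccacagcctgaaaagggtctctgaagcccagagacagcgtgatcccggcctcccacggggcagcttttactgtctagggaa

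The Zfp740 window (chr15:102203750-102204049, plus strand) held 5 GC boxes and the Rnf166 window (chr8:122476025-122476324, minus strand) held 3. The window of Pitpnm2 (chr5:124249711-124250010, minus strand) held 1 and that of Adgrg1 (chr8:94976859-94977158, plus strand) none. G and C made up 85.3%, 76.0%, 82.0% and 60.7% of the 4 windows, and CpG dinucleotides numbered 54, 44, 53 and 7. A promoter was found by symbol for 103 of the 129 genes, taking the first entry where there were several, as for 24 of them. Which start site RS use was not examined.

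Over these 103 promoters the median G and C content was 66.3%, against 52.8% over the 118 promoters found for genes falling at both steps and 59.7% over the 8212 found for genes with a mean of at least 100. The median number of CpG dinucleotides was 29, against 5 and 20. At least 1 GC box was present in 78 of 103 (75.7%), in 30 of 118 falling genes (25.4%), in 57.5% of the promoters of well expressed genes and in 35.9% of all 27025 promoters. As the letters of the GC box are G and C, this share and the base composition are not separate measures. Of 18 motifs searched on both strands, the cAMP response element TGACGTCA was in 5 of 103 promoters (4.85%) and 3.51% of the well expressed ones, and the E-box CACGTG in 13 (12.6%) and 10.1%. The heat shock element GAANNTTC was in 12 (11.7%) against 6.77%, and the antioxidant response element TGACNNNGC in 9 (8.74%) against 15.1%. The TATA box TATAAA was in 6 (5.83%), against 7.45% of well expressed genes and 14.2% of all promoters. CCAAT was in 37 (35.9%) against 40.0%, and the ATF4 element TGATGNAA in 1. These matches are descriptions of letters in a window and not binding sites.

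**Figure D3:**
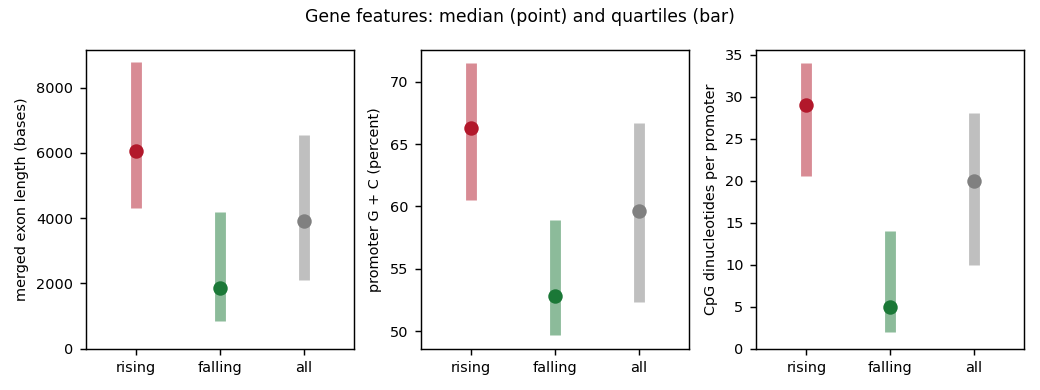
Median (point) and quartiles (bar) of merged exon length, promoter G and C content and CpG count for the rising genes, the falling genes and the genes with a mean of at least 100. The rising genes have the highest median in each panel, with 6047 bases, 66.3% and 29, and the falling genes the lowest, with 1875 bases, 52.8% and 5.

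Transcript length was not used in the choice. By the GENCODE annotation, matched by identifier for all 129, the median merged exon length was 6047 bases, against 3899 over the genes with a mean of at least 100 and 1875 for the falling genes. The set took up 0.140% of the shortest bin when the well expressed genes were divided by length into 5 equal bins, or 3 genes, and 2.29% of the longest bin, or 49 genes. The median log2 ratio of both compounds to vehicle over all well expressed genes also moved with length, from -0.10 in the shortest bin to 0.14 in the longest, so the set lies where the whole distribution was shifted in the same direction. The share of members changed little with abundance, from 1.12% of the lowest of 5 bins by mean count to 1.40% of the highest, while that of falling genes went from 3.13% to 0.187%. The transcript G and C content had a median of 51.9%, against 48.6% over all. Of the 129, 124 were annotated as protein coding (96.1%, against 85.9% of well expressed genes), and the other 5 were noncoding or unclassified models. Of the falling genes 69.9% were protein coding and 15.3% were lincRNA genes, against 5.65% lincRNA among well expressed genes. The comparisons of length and promoters were not limited to protein coding genes. They lay on every autosome, with 14 on chromosome 5 and 12 each on chromosomes 2 and 11, and none on the X chromosome, which held 2.56% of the well expressed genes.

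Members by role are described next. Roles were given after the values were known, from general knowledge, and 16 genes were left without one. The counts of called genes given for a list cover all its tested genes and are to be read beside the shares of all 25128 genes tested, of which 3.97% were called higher and 1.22% lower with oxamate, and 3.18% higher and 8.06% lower at the second step. Among the genes with a mean of at least 100 these shares were 8.08%, 1.59%, 7.06% and 12.7%.

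Endomembrane genes are given first. In the 17 genes of lysosomes, endosomes and nutrient sensing, the ratio of both compounds to vehicle ran from 1.35 to 2.35, with a median of 1.70. Mfsd12, which carries cysteine into lysosomes and melanosomes, had 1465, 1183 and 1333 normalized counts with vehicle, 2994, 2112 and 2195 with oxamate and 3212, 3039 and 3093 with both compounds. Its oxamate values were the most scattered. Mfsd12 shares 1179 exon bases with a noncoding gene on the opposite strand whose means were 2518, 1832 and 1311 in the order of the groups, and whether strand was used in counting is not stated in the sources used here.

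Atp13a2, a lysosomal polyamine exporter gene, had the largest second step of the set. Its values were 71.1, 65.4 and 71.4 with vehicle, 137, 95.3 and 73.4 with oxamate and 153, 154 and 181 with both compounds. Oxamate library 6 lay close to vehicle and library 4 close to the group with both compounds, so the first step rests on a wide spread (102 ± 32.4, SD, n = 3). The log2 difference at the second step, 0.67, was 0.95 without library 4 and 0.48 without library 6. Tmem127, a membrane protein gene of endosomes and lysosomes that restrains mTORC1, had 2071, 1798 and 2027, then 3368, 2507 and 2592, then 3991, 4066 and 4045, with steps of 1.44-fold and 1.43-fold. Rragc, one of the Rag GTPases that bring mTORC1 to the lysosome, had 538, 543 and 533, then 857, 848 and 798, then 1098, 1026 and 1049. The 3 groups of Rragc were tight and wide apart. Sppl2b, an intramembrane protease gene of late compartments, was at 2123 ± 178, 3129 ± 663 and 4366 ± 39.3 (SD, n = 3). The group also held Chmp7, Tollip, Scyl2, Acap2, Rab5b, Tecpr1, Pacsin1, Rab4a, Plbd2, Gm2a and Dmxl2. None of them was on the list of 35 lysosome and autophagy genes, of which 33 were tested. Of these 33, 2 were called higher and none lower with oxamate, and 2 higher and 5 lower at the second step. The median log2 fold changes of the list were -0.02 and -0.03. They stood beside -0.01 and -0.04 over all genes tested and 0.01 at both steps over genes with a mean of at least 100.

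The endoplasmic reticulum, Golgi and lipid transfer gave 10 genes, with ratios to vehicle between 1.43 and 2.40 and a median of 1.77. Mlec, a lectin gene that binds early N-glycans on new glycoproteins, had 5085, 4593 and 5184 with vehicle, 10274, 8558 and 8387 with oxamate and 11484, 11352 and 11502 with both compounds. Its log2 fold changes were 0.88 ± 0.08 and 0.31 ± 0.08 (SE). Calu, a calcium-binding protein gene of the secretory pathway, had 126, 138 and 134, then 218, 218 and 225, then 268, 266 and 263, with little spread in any group. Ncln, a membrane protein gene of the endoplasmic reticulum, was at 676 ± 64.0, 994 ± 241 and 1335 ± 45.5 (SD). Its oxamate library 4 reached 1266, near the lowest library with both compounds at 1290. Pitpnm2, Sppl3, Fam20b, Tmed5, Man1b1, Rce1 and Dnajc10 made up the rest. Of the 33 listed heat shock and endoplasmic reticulum chaperone genes, 32 were tested and none was in the set, with 3 called higher and none lower with oxamate, and 3 higher and 5 lower at the second step.

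The 11 genes of the ubiquitin system had ratios to vehicle from 1.46 to 2.45. Josd1, which encodes a deubiquitinase, had 1302, 1096 and 1186, then 2376, 1854 and 1856, then 2586, 2632 and 2844. Nploc4, a cofactor gene of the p97 ATPase that extracts ubiquitinated proteins, had 3648, 3148 and 3423, then 6136, 4522 and 4484, then 6445, 6693 and 6736. In both genes oxamate library 4 was well above libraries 5 and 6. Hectd4, a HECT-type ligase gene with one of the 5 highest mean counts of the set (not divided by length), was at 14973 ± 1336, 18560 ± 1425 and 21985 ± 589 (SD). Rnf166, Ibtk, Ube2z, Otud7b, Klhl18, Usp32, Fbxo45 and Ubac1 completed the group.

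Chromatin and general transcription gave 18 genes, with a median ratio to vehicle of 1.53 and a range from 1.37 to 1.94. Kat14, a subunit gene of the ATAC acetyltransferase complex, had 70.2, 80.6 and 83.3, then 101, 104 and 99.8, then 168, 141 and 146. Its second step, 1.49-fold, was larger than its first, 1.30-fold. Ncoa3, a nuclear receptor coactivator gene, was at 765 ± 61.7, 1068 ± 79.1 and 1350 ± 26.1, and Kat6a, a MYST acetyltransferase gene, at 170 ± 19.0, 220 ± 16.1 and 271 ± 30.3 (SD). They were the 2 members among 45 tested genes of histone acetylation, deacetylation and reading, of which 9 were called higher and none lower with oxamate, and 2 higher and 3 lower at the second step. Kdm2a, a histone lysine demethylase gene that depends on alpha-ketoglutarate, had 587, 655 and 633, then 763, 723 and 788, then 961, 975 and 954. It was the single member among the 57 tested genes of alpha-ketoglutarate-dependent dioxygenases, of which 9 were called higher and none lower with oxamate, and 3 higher and 5 lower at the second step. Setd5, a SET domain gene, was at 1657 ± 138, 1997 ± 57.0 and 2515 ± 48.2 (SD) and was the single member among 44 histone methyltransferase genes, of which 5 were higher and none lower with oxamate, and 4 higher and 3 lower at the second step. The list of 40 chromatin remodeller genes, which does not include the members Bcl7b, Nfrkb and Rad54l2, held no gene of the set. Of the 40, 9 were called higher and none lower with oxamate, and 4 higher and 3 lower at the second step. Beside these 4 lists, 3.97% of all genes tested were called higher and 1.22% lower with oxamate, and 3.18% higher and 8.06% lower at the second step. The group also held Med26, Mllt1, Nfrkb, Mau2, Rad54l2, Bcl7b, Mtf2, Wac, Gtf3c4, Ccnt2, Ubn1 and Rcor3. The exons of Mtf2 and Tmed5, both members, share 395 bases on opposite strands.

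DNA-binding factors gave 12 genes. Hsf5, a heat shock factor gene expressed in male germ cells, was the most abundant per exon length, at 3059 normalized counts per kb with vehicle, and had 12422, 12613 and 13123, then 16468, 17124 and 17522, then 20609, 19585 and 19458. Its steps were 1.34-fold and 1.17-fold with small spread. Mybl1, which encodes A-MYB, a regulator of meiotic transcription in the male germline, had 705, 821 and 798, then 866, 988 and 999, then 1322, 1288 and 1312. Mybl1 was the single member among 52 tested germ cell transcription and RNA regulators, of which 5 were called higher and none lower with oxamate, and 6 higher and 8 lower at the second step. Lef1, a mediator gene of Wnt signalling, was at 680 ± 47.8, 832 ± 21.9 and 975 ± 45.6 (SD) and was the single member of the Wnt and Hedgehog list, where 8 of 41 were called higher and none lower with oxamate and none higher and 3 lower at the second step, beside 3.97% higher and 1.22% lower, and 3.18% higher and 8.06% lower, of all genes. Lef1 shares 1208 exon bases with a gene on the opposite strand. Zfp609, a zinc finger gene, was at 1322 ± 90.6, 1889 ± 43.6 and 2256 ± 74.5 (SD). With Zfp740 it was 1 of 2 members among 366 genes named as zinc finger proteins, of which 23 were higher and 6 lower with oxamate, and 29 higher and 32 lower at the second step. Zbed6, Tef, Zscan29, Esrrb, Csrnp2, Atf7 and Rfx7 were the others, and 4392 of the 10156 exon bases of Zbed6 are shared with its host gene Zc3h11a on the same strand, so their reads may be split.

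RNA processing and translation gave 9 genes with ratios to vehicle between 1.47 and 1.87, namely Smg1, a kinase gene of nonsense-mediated decay, Eif5b, a translation initiation factor gene, the splicing and RNA-binding genes Srrm2, Khsrp and Safb, and Larp4b, Spats2, Nat10 and Dhx57. In cytoskeleton, nuclear envelope and cilium there were 13 genes, with the lowest median ratio of the assigned roles, 1.48. Map4, which encodes a microtubule-associated protein, had the highest mean count of the set, with 20450, 19456 and 21053, then 24621, 22716 and 23360, then 29400, 28088 and 27505. Myo9a, an unconventional myosin gene, was at 7704 ± 735, 9553 ± 602 and 13455 ± 330 (SD), and its second step was larger than its first. Pxn, the gene of the adhesion adaptor paxillin, was at 5622 ± 303, 6560 ± 443 and 7584 ± 222 (SD), the single member among 52 tested cytoskeleton, adhesion and matrix genes, of which 5 were higher and none lower with oxamate, and 2 higher and 8 lower at the second step. Lemd2, Myo9b, Arhgap11a, Net1, Tub, Syne2, Limd1, Katnip and Traf3ip1 were also in the group. Kpnb1 and Tnpo1, both nuclear import receptor genes, had ratios to vehicle of 1.54 and 1.46.

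The receptor, channel and signalling group held 12 genes. Ptprs, a receptor tyrosine phosphatase gene, had 299, 233 and 252, then 506, 372 and 389, then 591, 598 and 590, so the values with both compounds were nearly equal and those with oxamate were not. Slc38a10, a putative amino acid transporter gene, was at 2388 ± 182, 3040 ± 236 and 3551 ± 77.8 (SD). It was the single member among 24 tested genes of amino acid and nutrient transport, of which 5 were called higher and none lower with oxamate, and none higher and 6 lower at the second step, and among 307 solute carriers, of which 21 were higher and 2 lower with oxamate, and 4 higher and 24 lower at the second step. Adgrg1, Rcan1, Ppp4r3b, Elfn1, Kcng1, Nudt3, Apba1, Dixdc1, Necab2 and Grk3 made up the rest.

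Mitochondria and peroxisomes gave 5 genes. Rhot2, a GTPase gene of the mitochondrial outer membrane that links mitochondria to motors, had 87.1, 85.3 and 94.3, then 131, 108 and 123, then 181, 194 and 181, and shares 81 exon bases with Wdr90 on the same strand. Its second step, 1.54-fold, was larger than its first, 1.35-fold. Pex5 and Pex11g, genes of peroxisomal import and division, and Prxl2a and Letmd1 were the others. Genome maintenance and chromosome segregation gave 4 genes, Atad5, Ticrr, Bod1 and Slf2. Atad5, which encodes an unloader of the replication clamp, was at 74.5 ± 9.36, 104 ± 17.7 and 155 ± 22.4 (SD), with the lowest library of one group close to the highest of the group before. Among the 16 genes without a role, Zcchc2, a zinc knuckle gene, had one of the 5 highest mean counts, at 8311 ± 551, 10763 ± 527 and 15018 ± 516 (SD).

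**Figure D4:**
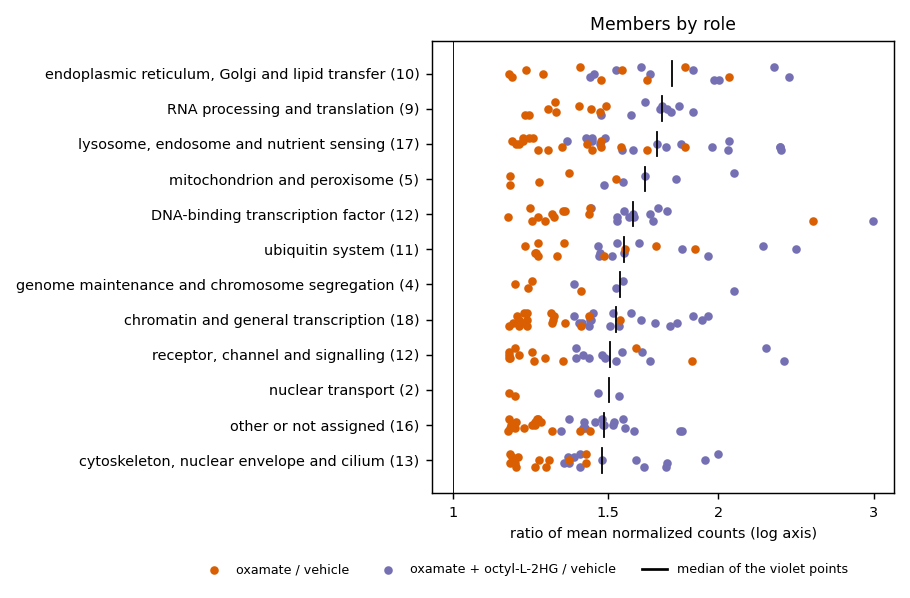
Ratio of mean normalized counts to vehicle for each of the 129 genes, with oxamate (orange) and with both compounds (violet), by role (number of genes in brackets), on a log axis, with a black line at the median of the violet points. The median for both compounds runs from 1.48 in the cytoskeleton group to 1.77 in the endoplasmic reticulum and Golgi group, and Zfp740 is the point at 3.0.

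**Figure D5:**
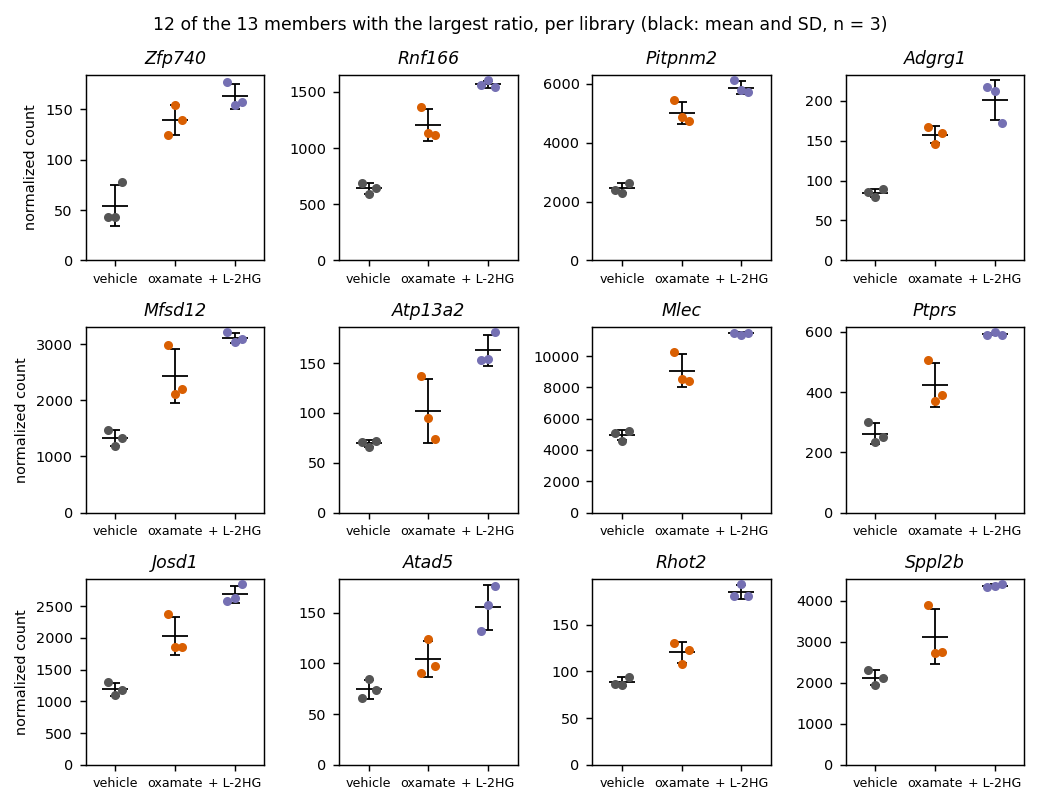
Normalized counts per library for 12 of the 13 genes with the largest ratio of both compounds to vehicle, with mean and SD (n = 3, axes from 0). The 3 groups do not overlap in any panel, as the choice of the genes requires, and in Mfsd12 and Atp13a2 the first oxamate point sits near the third group.

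Other listed groups held no member. No gene of the set was among the 36 immediate early and stress-inducible genes, of which 29 were tested, 7 were called higher and none lower with oxamate, and none higher and 7 lower at the second step. The same held for the lists of the integrated stress response, HIF targets, NRF2 and antioxidant genes, p53 targets, BCL2 family and caspase genes, cholesterol and fatty acid synthesis, glycolysis and lactate, and the tricarboxylic acid cycle with 2-hydroxyglutarate. Of the 40 tested glycolysis and lactate genes, 2 were higher and none lower with oxamate, and none higher and 5 lower at the second step. None of 47 tested acrosome and sperm surface genes, 64 sperm tail genes and 44 genes of sperm chromatin condensation and head shaping was a member, and 5 of these 44 were among the genes falling at both steps. Members made up 129 and falling genes 163 of the 10715 genes with a mean of at least 100, so few or no members in a list of this size is near the share over all genes. The lists of ribosomal proteins, histones, mitochondrially encoded genes, TGF-beta and BMP signalling, MAP kinase and small GTPase signalling, and cell cycle and DNA replication held no member either.

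The fitted log2 fold changes of the lists with a member had these medians. They are to be read beside -0.01 at the first step and -0.04 at the second over all genes tested. Over the genes with a mean of at least 100 the medians were 0.01 at both steps. The acetylation list was at 0.11 and 0.01, the histone methyltransferases at 0.09 and 0.04, and the alpha-ketoglutarate-dependent dioxygenases at 0.07 and -0.04. The Wnt and Hedgehog list was at 0.20 and -0.15 and the nutrient transport list at 0.06 and -0.03. For the other lists with a member the medians lay between -0.01 and 0.04 at the first step and between -0.05 and 0.05 at the second. The stress-inducible list, with no member, was at 0.21 and -0.26.

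The members nearest to the limits differed little from genes left out. The smallest first steps inside were 1.153-fold for the uncharacterized gene 1810013L24Rik, 1.154-fold for Csrnp2 and 1.156-fold for AU040320 (log2 differences of Csrnp2 and AU040320 without oxamate library 4 were 0.10 and 0.12), and the largest outside were 1.149-fold for Afg3l2, 1.148-fold for Cfap74 and 1.147-fold for Kif3b. At the second step the smallest inside were 1.151-fold for 1810013L24Rik, Katnip and Traf3ip1, and the largest outside were 1.149-fold for Celf6, 1.147-fold for 9130221H12Rik and 1.146-fold for 4933424N20Rik. The lowest mean count inside was 106 for Dhx57, and the highest outside was 92.8 for Tmem17. Without the condition on the order of libraries 207 genes would have been chosen, and 37 with 25% at each step.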

How the data were processed

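RNA of 9 libraries was sequenced after poly(A) selection with a stranded kit. Per the labels and the study's methods, the authors trimmed reads with cutadapt 2.10, aligned them with TopHat2 2.1.1 and made the deposited counts per gene with HTSeq 2.01. The genome build was taken as GRCm39 from the labels, which also list WBcel235, taken here as a stray entry. The deposited normalized signal is each count divided by a DESeq2 1.36.0 size factor (0.867 to 1.125) and is given for the 25128 genes with at least 10 summed counts of 55414 listed. A further 6250 genes had blank counts. Ratios, means, SDs and the choice of members used this signal. Tests used edgeR 4.0.16 (TMM, quasi-likelihood, all 3 groups in 1 fit, Benjamini-Hochberg) on the counts, with DESeq2 1.42.0 as an alternative, and were tested on simulated data. Members, gene lists and motifs were chosen with earlier results of these data known. Values are named for the 20 members with the largest ratio to vehicle, the 5 most abundant, those on a list and those nearest the limits. Other members are given by symbol, except that Prxl2a, Kpnb1 and Tnpo1 also have a share or ratio. One gene that met the rule was left out, and 3 members are counted but not described here. Exon length and biotype came from GENCODE M21 and promoters from RefSeq, both on GRCm38.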

Additional observations from a re-analysis of the deposited data

How the results depend on the processing

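The number of genes meeting the rule was 129. It was 55 with counts scaled by totals, 234 with 10% and 37 with 25% at each step and 207 with no condition on order, and 126 to 180 with 1 library left out, highest without oxamate library 4, when 98 of the 129 were among the 180. With TMM, 101 genes met it, 95 of them among the 129. The median log2 ratio of the members at the second step, 0.31, was 0.28 with TMM or edgeR's fitted fold change, 0.24 with total counts, 0.34 with medians in place of means and 0.28 to 0.35 with 1 library left out. At the first step, 0.32, it moved by less than the spread between libraries under every alternative tried. Genes called with oxamate against vehicle numbered 1303, 602 at an adjusted p under 0.01, 723 with only the groups compared and 669 to 2305 with 1 library left out (lowest without vehicle library 2, highest without oxamate library 4). With octyl-L-2HG against oxamate they numbered 2823, 1261 at an adjusted p under 0.01 and 1385 to 4417 with 1 library left out, namely 4417 without library 4, 1447 without 5, 1385 without 7, 1489 without 8 and 1752 without 9. Against vehicle they numbered 4534, 2607 at an adjusted p under 0.01 and 2961 (without library 7) to 6182 (without library 4) with 1 library left out. The cause was not tested, except that a stricter limit admits fewer genes by construction. For the 38 members named by rank, list or nearness to a limit, all 988 values under alternatives kept their direction. Prxl2a, Kpnb1 and Tnpo1 are not among the 38. No paired analysis was possible because the labels number the libraries 1 to 9 with no number shared between groups. The minimum mean of 100 sets the lower end of the set. With a minimum of 200 in its place 111 of the 129 remained, and with 50, 135 genes met the rule.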
